A study of Mus musculus with 3 samples.

Results

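The siWhsc1l1 libraries came from mouse embryonic fibroblasts in which a pool of siRNAs was directed at Whsc1l1, a gene that the deposited tables list under its current symbol Nsd3. They were chosen by the condition in their column names and number 3 of the 127 libraries present in both deposited tables, 1 in each of 3 sequenced pools. They were set against 3 libraries of a non-targeting siRNA (nt), against 5 libraries of a transfection without siRNA (Mock), and against the 95 libraries of the other 32 siRNAs. All of these cells were primary wild-type fibroblasts of the BL6 strain, reprogrammed at passage 2 after transduction at an MOI of 1 with lentiviruses carrying the inducible tet-STEMCCA cassette of Oct4, Sox2, Klf4 and c-Myc and the rtTA activator. Transfection used RNAiMAX with 40 nM of pooled siRNA, 24 hours before induction. The medium held doxycycline at 2 ug/mL, chiron at 3 uM, the TGF-beta inhibitor Alk5i at 0.25 uM, ascorbic acid at 50 ug/mL and LIF, and cells were collected on day 6. A series of untransfected cells, Day00 to Day06, had 3 libraries a day. Reprogramming here depends on a virus-borne cassette, and siRNAs were pooled. By the study's methods each condition was transfected in triplicate, while the labels do not tell whether the replicates also came from separate fibroblast preparations. The 5 Mock libraries come from the same 3 pools. The labels do not tell whether Mock libraries of the same replicate number were separate transfections.

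NSD3 is a SET-domain protein that methylates lysine 36 of histone H3, a mark read by PWWP-domain proteins. A short isoform lacks the catalytic SET domain but keeps the N-terminal PWWP domain, and it works as an adaptor between other chromatin proteins. The gene lies in a chromosome segment that is amplified in several cancers.

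The siRNA sequences are shown because they define which Nsd3 transcripts could be reached. Of the pool, 2 siRNAs against Nsd3 are listed in the study's library, and the third was not analysed here. Each antisense strand is written 5′ to 3′, with bases 2 to 8, the seed, in capitals.
siRNA 502440: aAUGUUAAagcaauuguucag
siRNA 502441: uUACAAAUaagcaaagaccaa
On GRCm38, Nsd3 lies on the plus strand at chr8:25601601-25719667 and has 11 annotated transcripts, of which 8 are protein-coding. The first siRNA matched chr8:25676939-25676957, in the last exon of the short protein-coding transcripts Nsd3-208 and Nsd3-211 and in the retained-intron transcript Nsd3-205. The second matched chr8:25717904-25717922, in the last exon of the long transcripts Nsd3-201 and Nsd3-206. All 4 protein-coding matches were in the 3′ UTR, no transcript carried both sites, and neither 19-base core matched a transcript of another gene. The site of the second siRNA lies 1764 bases from the 3′ end of the long transcripts, and that of the first lies 1034 and 276 bases from the 3′ ends of Nsd3-208 and Nsd3-211. CEL-Seq2, used here on bulk RNA, primes at the poly(A) tail and marks each captured molecule with a random tag, so that its counts stand for molecules with a 3′ end.

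Whether Nsd3 RNA was lower on day 6 could not be decided at this depth. In the siWhsc1l1 libraries of replicates 1, 2 and 3, Nsd3 had 3, 3 and 0 counts. The nt libraries had 4, 1 and 5 counts. The Mock libraries had 2 and 1 counts in replicate 1, 1 and 2 in replicate 2, and 3 in replicate 3. The groups overlapped, and the library with 0 counts was the deepest of the 3. Given how much of the counts Nsd3 took in the remaining transfected libraries, replicate by replicate, 6.21 counts were expected in siWhsc1l1 where 6 were found, a ratio of 0.966 with an exact Poisson 95% interval of 0.354 to 2.102. Nsd3 did not pass the low-count filter of the main test and was fitted with edgeR in a second model, which added it to the genes that did. Its fitted log2 fold change was -0.03 ± 0.78 (SE) against nt (edgeR adjusted p = 0.995) and -0.05 ± 0.80 against Mock (edgeR adjusted p = 0.997). Without replicate 3 the value against nt was 0.99. Nsd3 was a low transcript throughout, with 378 counts in all 127 libraries, and in the time course it had between 8 counts on day 2 and 21 counts on day 3. The Poisson interval allows for counting error alone, whereas the edgeR errors also hold the spread between libraries.

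The siWhsc1l1 libraries were shallower than the nt libraries in every replicate. They held 53757, 40524 and 101494 counts in replicates 1, 2 and 3, and the nt libraries held 75100, 80136 and 143156. The Mock libraries held 38925 to 83089 counts, and all 127 libraries 29656 to 235292. A gene was tested if its counts passed a low-count filter, which 3013 of 50507 genes did. Levels are given in CPM, counts scaled by each library's total over the tested genes times its TMM normalization factor. By this scale 1 count stood for 22.7, 30.9 and 12.2 CPM in the siWhsc1l1 libraries of replicates 1, 2 and 3. The labelled cell type was present: fibroblast genes such as Vim, with 93 counts, and Thy1, with 57, were detected in the siWhsc1l1 libraries, and 10 listed fibroblast markers took 0.223% to 0.232% of their counts, against 0.162% to 0.226% in nt and 0.179% to 0.280% in Mock. Of markers of other cells, Cd68, C1qa and Csf1r of macrophages, Pecam1, Cdh5 and Kdr of endothelium, Sox10 of glia, Krt5 and Krt14 of keratinocytes and Hba-a1 of erythroid cells were at 0 counts in the siWhsc1l1 libraries.

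Against nt, siWhsc1l1 cells had more RNA of several cytosolic ribosomal protein genes and their sequence copies. They had less of the mitochondrial chaperone gene Hspd1 and of Gm42418, an abundant transcript annotated as a lincRNA. Of 3013 genes tested, 53 passed an edgeR quasi-likelihood test at an adjusted p under 0.05, or 1.76%, with 33 higher (1.10%) and 20 lower (0.664%). The 33 higher genes were 7 ribosomal protein genes, 17 near-identical copies of ribosomal protein genes, 3 other pseudogenes and 6 other protein-coding genes. The 20 lower genes were 10 genes annotated as protein-coding, 7 pseudogenes, and Gm42418, Gm26384 and Mir703. Reads of near-identical genes could have been shared between them in counting, and the 53 genes formed 37 families of similar sequence, of which 19 were higher, 10 of these being families of a ribosomal protein gene, and 18 were lower. Under DESeq2's size factors in edgeR 60 genes were called, 44 higher and 16 lower, and under DESeq2 48, 38 higher and 10 lower. Without the replicate block 14 genes passed, without replicate 1, 2 or 3 there were 34, 21 and 24, and limma on the deposited log2 values called 0, with 643 at an unadjusted p under 0.05.

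**Figure D1:**
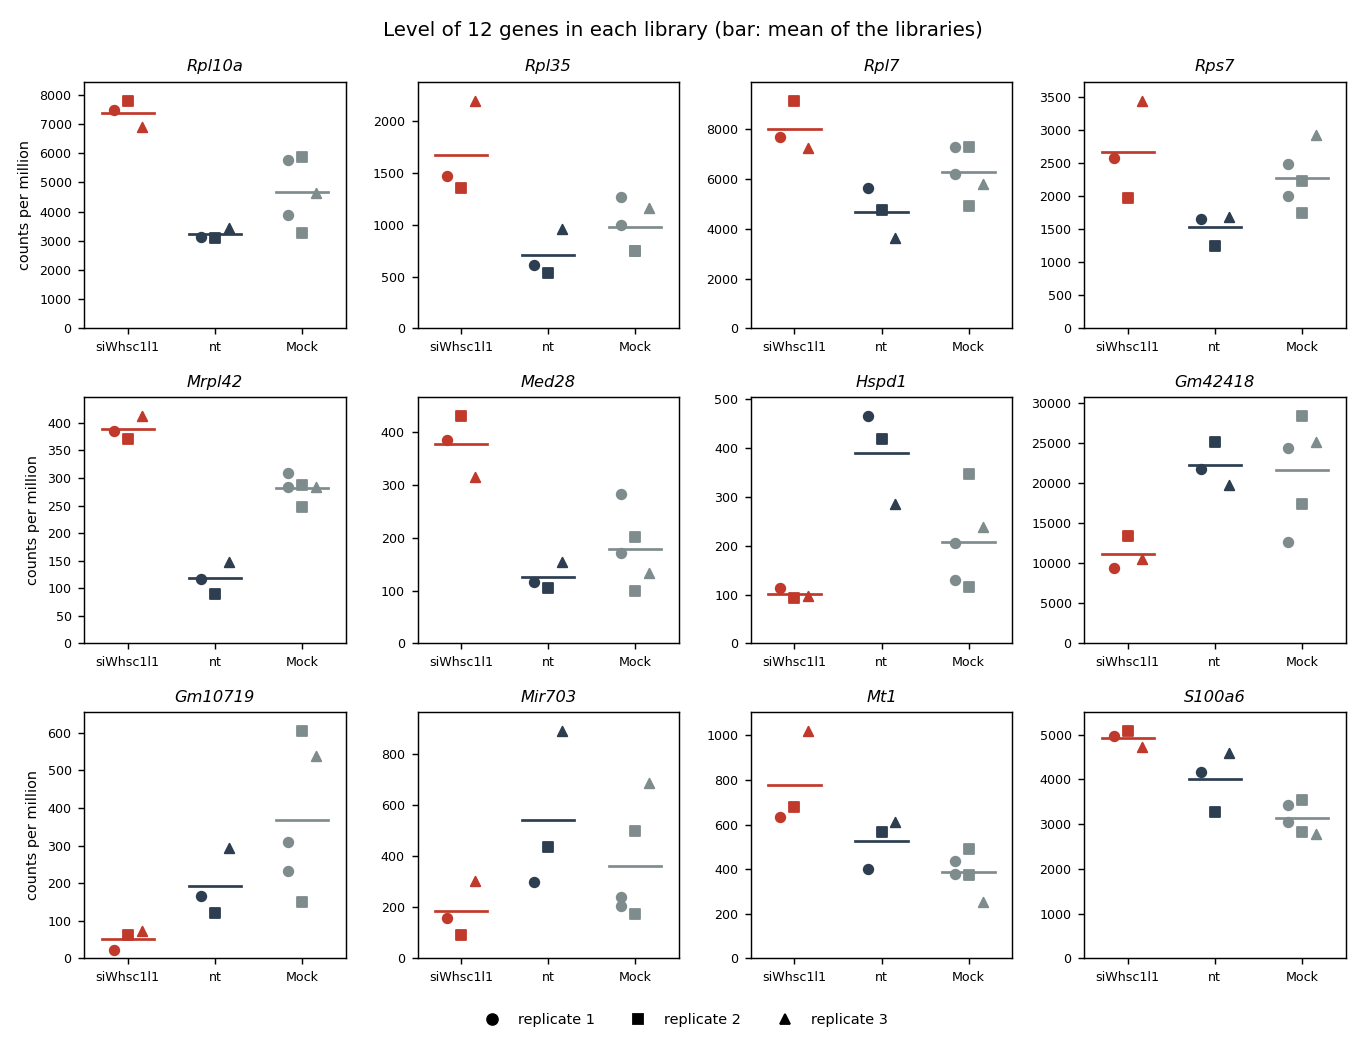
Level of 12 genes, in CPM, in each siWhsc1l1, nt and Mock library. Each point is 1 library and the bar is the mean of the condition. Rpl10a lay near 7396 CPM in siWhsc1l1 and 3225 CPM in nt, and Hspd1 near 101 and 390 CPM.

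Ribosomal protein genes encode the protein part of the small and large cytosolic ribosomal subunits. Of 90 such genes listed, 75 were tested. Against nt, 7 rose and 0 fell, where 1.10% of all tested genes were called higher, and the median log2 fold change over the 75 was 0.28, where that of all tested genes was -0.04. The 7 became 4 without any 1 of the replicates, 2 without the replicate block and 0 by limma, with 0 lower each time. Of the 75 fitted values 50 were above 0, and they ran from -1.32 to 1.24. The 7 were Rpl10a, Rpl35, Rpl7, Rpl15 and Rpl41 of the large subunit and Rps7 and Rps20 of the small subunit. All ribosomal protein genes together took 6.07%, 5.90% and 7.11% of the counts in siWhsc1l1, against 4.53%, 4.48% and 5.76% in nt. In each replicate the siWhsc1l1 share was above the nt share, and every siWhsc1l1 library was above every nt library. The 5 Mock libraries took 4.88% ± 0.632 (SD), close to 4.93% ± 0.726 in nt and below 6.36% ± 0.656 in siWhsc1l1. In bulk RNA, fewer cells of a type and less RNA per cell cannot be told apart.

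**Figure D2:**
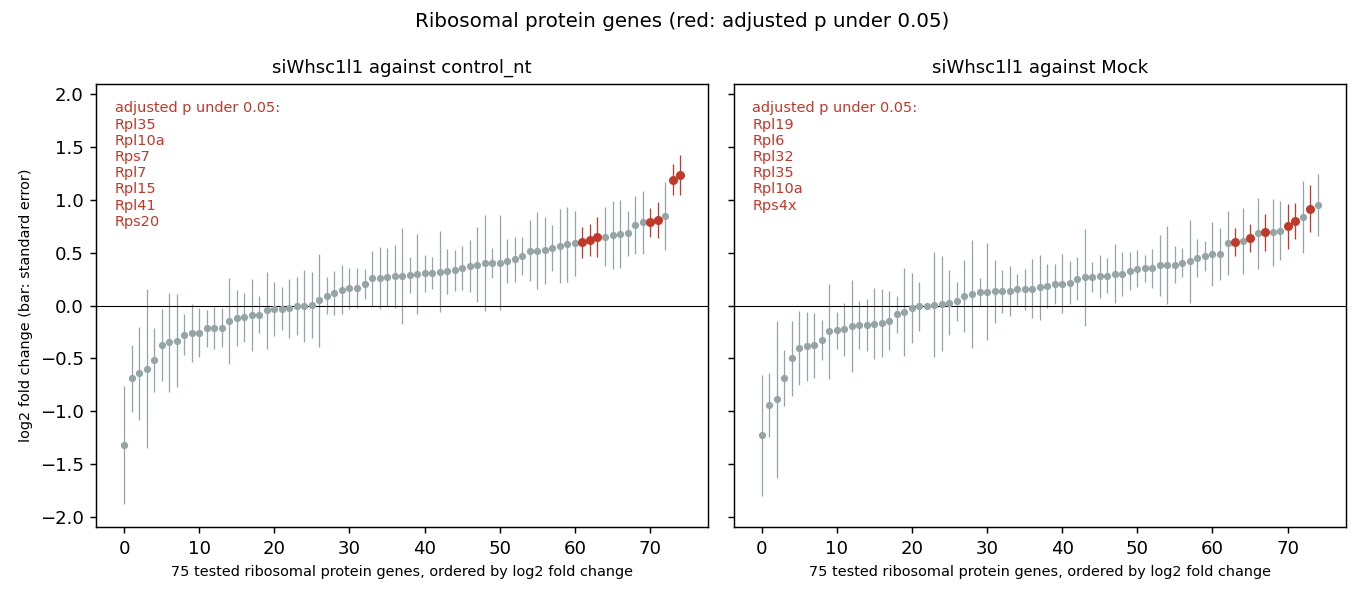
Fitted log2 fold change with SE of 75 ribosomal protein genes in siWhsc1l1, against nt and against Mock, with genes past the edgeR threshold in red. Against nt 7 were called and against Mock 6, all higher, and both sets of values used the same siWhsc1l1 libraries.

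Rpl10a, on chromosome 17 from 28328471 to 28331033, encodes a protein of the large subunit. Its level in replicates 1, 2 and 3 was 7491, 7806 and 6891 CPM in siWhsc1l1 and 3131, 3096 and 3447 CPM in nt. In Mock it was 5780.2 and 3879.8 CPM in replicate 1, 5880.3 and 3252 CPM in replicate 2 and 4627 CPM in replicate 3. Every siWhsc1l1 library lay above every nt and every Mock library, and the Mock libraries spread between the nt and siWhsc1l1 levels. The means were 7396 ± 465 CPM (SD, n = 3) in siWhsc1l1, 3225 ± 194 in nt (n = 3) and 4684 ± 1155 in Mock (n = 5). Rpl10a was higher than nt by a log2 fold change of 1.19 ± 0.15 (SE; edgeR adjusted p = 3.74e-11) and higher than Mock by 0.64 ± 0.13 (edgeR adjusted p = 0.000325). Mock itself was above nt by 0.55 ± 0.13 (edgeR adjusted p = 0.00771). The pseudogene Rpl10a-ps1, identical to Rpl10a over 654 bases, was higher by 1.03 against nt and 0.59 against Mock. Both kept their call against nt without any 1 of the replicates.

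Rpl35, at 39001580 to 39005624 on chromosome 2, encodes another protein of the large subunit. It was at 1475, 1358 and 2200 CPM in the siWhsc1l1 libraries and at 616, 538 and 964 CPM in the nt libraries of the same replicates. Mock libraries ranged from 745 to 1264 CPM. Again the siWhsc1l1 libraries did not overlap the nt or Mock libraries. The log2 fold change was 1.24 ± 0.19 (SE) against nt (edgeR adjusted p = 3.33e-07) and 0.69 ± 0.18 against Mock (edgeR adjusted p = 0.0108). Without the replicate block the call of Rpl35 against nt was lost. Gm2000, which is 99.55% identical over 445 bases, and the pseudogene Gm10269, which is 98.92% identical over 370 bases, were higher than nt by 1.19 and 1.03 on the log2 scale. These 3 genes cannot be counted as independent, and Gm10269 was not called without replicate 3.

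Rpl7, a large-subunit gene on chromosome 1, was at 7672, 9133 and 7219.5 CPM in siWhsc1l1 and at 5645, 4726 and 3619 CPM in nt. The Mock libraries ran from 4890.4 to 7277 CPM, so that they overlapped the siWhsc1l1 libraries, whereas the nt libraries did not. Rpl7 was higher than nt by 0.79 ± 0.14 (SE, log2; edgeR adjusted p = 2.50e-05) and differed from Mock by 0.35 ± 0.13 (edgeR adjusted p = 0.169). Another 5 genes called higher were copies of Rpl7, led by Rpl7-ps7, which is 98% identical over 799 bases and was higher than nt by 0.86 ± 0.14.

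Rps7, a small-subunit gene on chromosome 12, was at 2565, 1975 and 3440 CPM in siWhsc1l1 and at 1649, 1241 and 1683 CPM in nt. The Mock libraries spanned 1738 to 2926 CPM. The siWhsc1l1 libraries lay above nt, and against Mock those of replicates 1 and 2 lay within the range while that of replicate 3 lay above it. Rps7 was higher than nt by 0.81 ± 0.17 (SE, log2; edgeR adjusted p = 0.000364), while its difference from Mock was 0.15 ± 0.15 (edgeR adjusted p = 0.802) and that of Mock from nt was 0.66 ± 0.15 (edgeR adjusted p = 0.00508). The call of Rps7 against nt was lost without replicate 3 and without the replicate block. With Rps7, 4 of its copies were called higher.

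The other ribosomal protein genes called against nt had smaller differences. Rpl15 was higher by 0.65 ± 0.19 (edgeR adjusted p = 0.0426), Rpl41 by 0.62 ± 0.15 and Rps20 by 0.60 ± 0.15 (edgeR adjusted p = 0.00943 for each). None of these 3 was called without replicate 1, without replicate 2 or without the replicate block. Of the pseudogenes, Gm11478 (a copy of Rpl13a) was higher by 0.86 ± 0.19, and it was not called without replicate 1.

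Many ribosomal protein mRNAs begin with a run of pyrimidines, through which their translation is controlled. The 30 bases around the annotated start, from 15 before it to 15 after it, are shown for 3 called genes because they differ in this feature. The longest run of C and T is in capitals, and the sequences are those of RefSeq on GRCm38.p6.
Rpl35, chr2:39005117-39005146, minus strand: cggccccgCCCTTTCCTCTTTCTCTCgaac
Rpl15, chr14:18270972-18271001, minus strand: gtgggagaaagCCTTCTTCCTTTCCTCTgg
Rpl10a, chr17:28328456-28328485, plus strand: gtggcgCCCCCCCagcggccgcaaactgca
A run of at least 8 C or T in the sequence as shown was present in Rpl35 and Rpl15, with 18 and 17 bases, and absent in Rpl10a, with 7 bases. Windows were found for 5 of the 7 called ribosomal protein genes, of which 2 had such a run. It was present in 45.3% of the 53 tested ribosomal protein genes with a window, in 14.9% of all 1921 tested genes with one, and in 13.9% of 27025 RefSeq genes. Rpl10a, the ribosomal protein gene with the lowest adjusted p, was among those without the run.

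Outside the ribosomal protein genes, 6 protein-coding genes were higher than nt. Mrpl42, a gene of the mitochondrial ribosome at 95480805 to 95501940 on chromosome 10, was at 386, 370 and 413 CPM in siWhsc1l1 and at 117, 89.7 and 147 CPM in nt. Mock libraries lay between these groups, at 248 to 309 CPM, with no overlap on either side. Mrpl42 was higher than nt by 1.67 ± 0.34 (SE, log2; edgeR adjusted p = 0.000364), and its difference from Mock was 0.46 ± 0.30 (edgeR adjusted p = 0.646). Mock was above nt by 1.21 ± 0.34 (edgeR adjusted p = 0.0381).

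Med28 encodes a subunit of the Mediator complex, which links transcription factors to RNA polymerase II. It was at 386, 432 and 316 CPM in siWhsc1l1, against 117, 105 and 155 CPM in nt and 99.3 to 284 CPM in Mock. Each siWhsc1l1 library was above all nt and Mock libraries. The log2 fold change was 1.46 ± 0.36 against nt (edgeR adjusted p = 0.00943) and 1.07 ± 0.35 against Mock (edgeR adjusted p = 0.112). The call against nt was lost without replicate 1 and without replicate 2. Its level in siWhsc1l1 was the highest among the 35 transfected conditions.

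The remaining protein-coding genes changed less or rested on fewer counts. Sf3b5, a small subunit of the SF3b splicing complex, was higher by 1.43 ± 0.41 (edgeR adjusted p = 0.0368) from 42 counts against 24, and its call was lost without replicate 2 and without replicate 3. Crabp1, a retinoic acid binding protein, was higher by 0.71 ± 0.20 (edgeR adjusted p = 0.0384). Cd63, a membrane protein of late endosomes, was higher by 0.69 ± 0.20 (edgeR adjusted p = 0.0402). The mitochondrial transcript mt-Nd4 was higher by 0.42 ± 0.12 (edgeR adjusted p = 0.0483), although its siWhsc1l1 libraries, at 18948 to 24810 CPM, overlapped the nt libraries, at 14345 to 21233 CPM, and it was not called without replicate 2 or replicate 3. The pseudogene Gm11956, with no protein-coding relative found, was higher by 0.98 ± 0.19 (edgeR adjusted p = 9.37e-05).

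**Figure D3:**
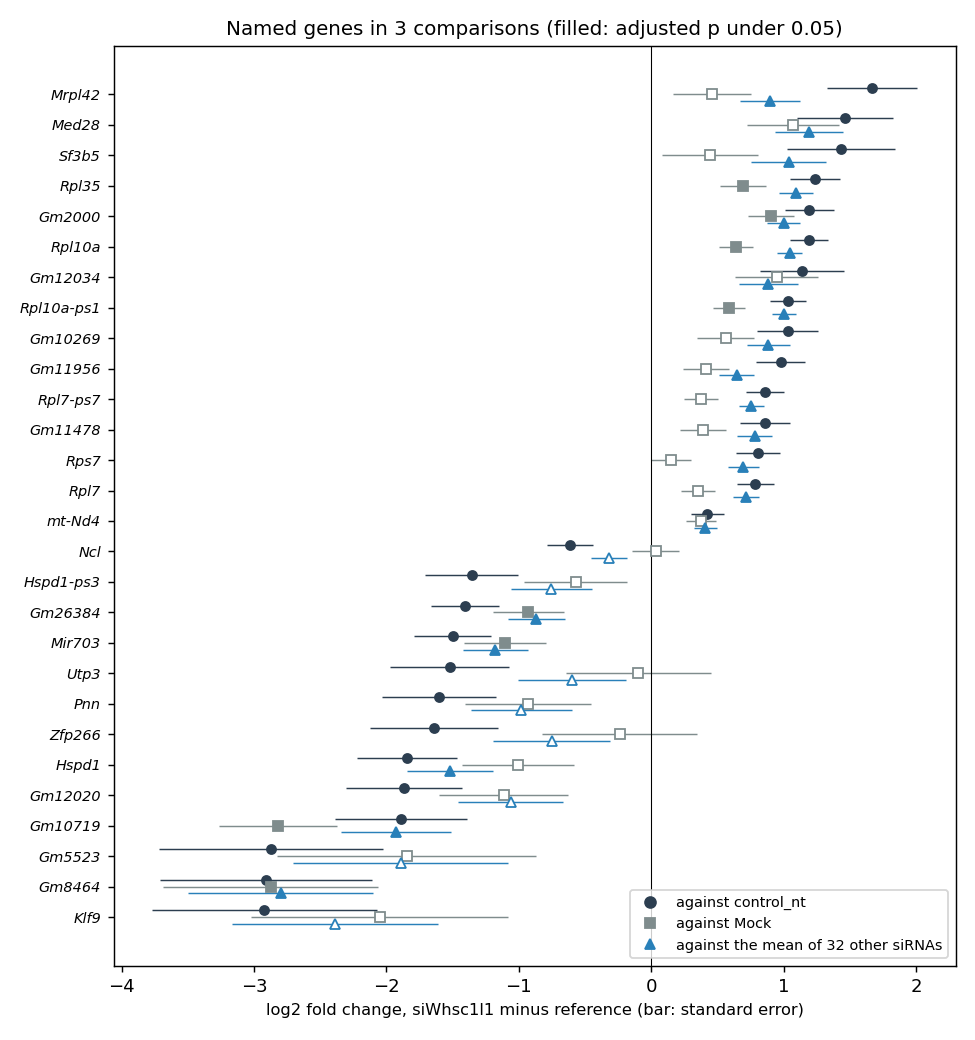
Fitted log2 fold change with SE of 28 genes in siWhsc1l1 against nt, against Mock and against the mean of the other siRNAs. Values for Rpl10a were 1.19, 0.64 and 1.05, and for Hspd1 they were -1.84, -1.005 and -1.52.

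Among the genes that were lower than nt, Hspd1, which encodes the mitochondrial chaperonin HSP60, had the lowest adjusted p of the protein-coding genes. It lies at 55077835 to 55088243 on chromosome 1. Its level was 113, 92.6 and 97.2 CPM in siWhsc1l1, from 5, 3 and 8 counts, and 466, 419 and 286 CPM in nt, from 28, 28 and 35 counts. Mock libraries ran from 115 to 348 CPM. Every siWhsc1l1 library was below every nt and Mock library, with the lowest Mock libraries next to the highest siWhsc1l1 library. The mean was 101 ± 10.99 CPM (SD, n = 3) in siWhsc1l1 and 390.3 ± 93.5 CPM in nt (n = 3). Hspd1 differed from nt by -1.84 ± 0.38 (SE, log2; edgeR adjusted p = 0.000361) and from Mock by -1.005 ± 0.42 (edgeR adjusted p = 0.295). It kept its call against nt without any 1 of the replicates. The pseudogene Hspd1-ps3, 98.95% identical over 1722 bases, was lower than nt by a log2 value of -1.36 ± 0.35, a call that was lost when any 1 replicate was left out.

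Ncl, nucleolin, a main protein of the nucleolus, was at 1203, 1049 and 1033 CPM in siWhsc1l1 and at 1565, 1600.3 and 1805 CPM in nt. The siWhsc1l1 libraries lay below nt and within the Mock libraries, at 927 to 1216 CPM. The log2 fold change of Ncl was -0.62 ± 0.17 against nt (edgeR adjusted p = 0.0364) and 0.03 ± 0.18 against Mock (edgeR adjusted p = 0.982), and that of Mock against nt was -0.65 ± 0.16 (edgeR adjusted p = 0.00723). The call of Ncl against nt was lost when any 1 replicate was left out. Gtpbp4, a GTPase of large-subunit assembly, differed from nt by -0.87 ± 0.25 (edgeR adjusted p = 0.0365), and Utp3, a factor of small-subunit assembly, by -1.52 ± 0.45 (edgeR adjusted p = 0.0488). Bclaf1 and Pnn, nuclear proteins associated with transcription and splicing, differed from nt by -0.92 ± 0.22 (edgeR adjusted p = 0.00810) and -1.60 ± 0.43 (edgeR adjusted p = 0.0239). None of these 5 genes was called against Mock, where Gtpbp4 had -0.24 ± 0.26, Utp3 -0.10 ± 0.55, Bclaf1 -0.25 ± 0.23 and Pnn -0.93 ± 0.48. Utp3 lost its call without replicate 2 and without replicate 3, and Pnn without replicate 2.

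Klf9, a Krüppel-like transcription factor induced by glucocorticoid and thyroid hormone, had 0, 0 and 2 counts in siWhsc1l1 and 6, 10 and 10 in nt, a ratio of 8.53-fold lower by counts with an interval of 2.14 to 74.2. The pseudogenes Gm5523, a copy of Gapdh, and Gm8464 also had 2 counts against 26, with the same ratio and interval. Klf9 and Gm8464 were not called when any 1 replicate was left out, and Gm5523 not without replicate 2. Zfp266, a zinc finger gene, differed from nt by -1.64 ± 0.48 (edgeR adjusted p = 0.0484), a call also lost when any 1 replicate was left out, and Zc3h15 by -1.29 ± 0.38 (edgeR adjusted p = 0.0484). Of the pseudogenes of growth-related genes, Gm14681, a copy of Npm1, was lower than nt by -1.02 ± 0.20 on the log2 scale (edgeR adjusted p = 0.000119) and lower than Mock by -0.78 ± 0.19 (edgeR adjusted p = 0.00672). Gm5844, a copy of Hsp90aa1, differed from nt by -0.55 ± 0.16 (edgeR adjusted p = 0.0402). Gm12020 differed from nt by -1.87 ± 0.44 (edgeR adjusted p = 0.00398), a call lost without replicate 3. Against Mock, Klf9, Gm5523, Zfp266, Zc3h15, Gm5844 and Gm12020 were not called. Zfp266 differed from Mock by -0.24 ± 0.59 (edgeR adjusted p = 0.954), and Mock from nt by -1.40 ± 0.42. Gm8464 was called against Mock too, with -2.87 ± 0.81 (edgeR adjusted p = 0.0404).

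Mir703 and Gm26384 are annotated as miRNAs, but their annotated sequences are 98.17% and 98.18% identical over 109 and 110 bases to Eef1a1, the abundant elongation factor mRNA. Mir703 was at 159, 92.6 and 304 CPM in siWhsc1l1 and at 299.8, 434 and 890.5 CPM in nt. Within each replicate siWhsc1l1 was lower, while over all libraries the groups overlapped because replicate 3 was high in both. The log2 fold change was -1.50 ± 0.29 for Mir703 (edgeR adjusted p = 0.000119) and -1.41 ± 0.26 for Gm26384 (edgeR adjusted p = 3.56e-05). Both calls were lost without replicate 3 and without the replicate block. Eef1a1 itself differed from nt by -0.59 ± 0.28 (edgeR adjusted p = 0.343). Since the counts are of mRNA 3′ ends, they give no measure of a mature miRNA.

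Gm42418, annotated as a lincRNA at 39846958 to 39848788 on chromosome 17, was the most abundant of the 20 lower genes. Whether its counts come from that annotated RNA was not tested. Its level was 9488, 13483 and 10586 CPM in siWhsc1l1 and 21749, 25156 and 19852 CPM in nt. In Mock it was 12696 and 24412 CPM in replicate 1, 17439 and 28474 CPM in replicate 2 and 25122 CPM in replicate 3. The siWhsc1l1 libraries lay below all nt libraries, and 1 Mock library fell among them. The log2 fold change was -1.002 ± 0.19 against nt (edgeR adjusted p = 7.14e-05) and -0.96 ± 0.17 against Mock (edgeR adjusted p = 2.77e-05). As a share of all counts Gm42418 took 0.905% ± 0.156 (SD, n = 3) in siWhsc1l1, the lowest mean of the 35 transfected conditions, where the other 34 ranged from 1.17% to 3.75% with a median of 1.71%. The share of ribosomal protein genes in siWhsc1l1 ranked 2 of 35, after siPou5f1 with 6.79%, and the other 34 conditions ranged from 3.19% to 6.79% with a median of 4.85%. The mitochondrially encoded transcripts took 25.9% ± 2.06 of the counts in siWhsc1l1, 24.5% ± 1.73 in nt and 25.9% ± 2.14 in Mock. The part of the Gm42418 share and of depth in the ribosomal protein result was not tested.

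**Figure D4:**
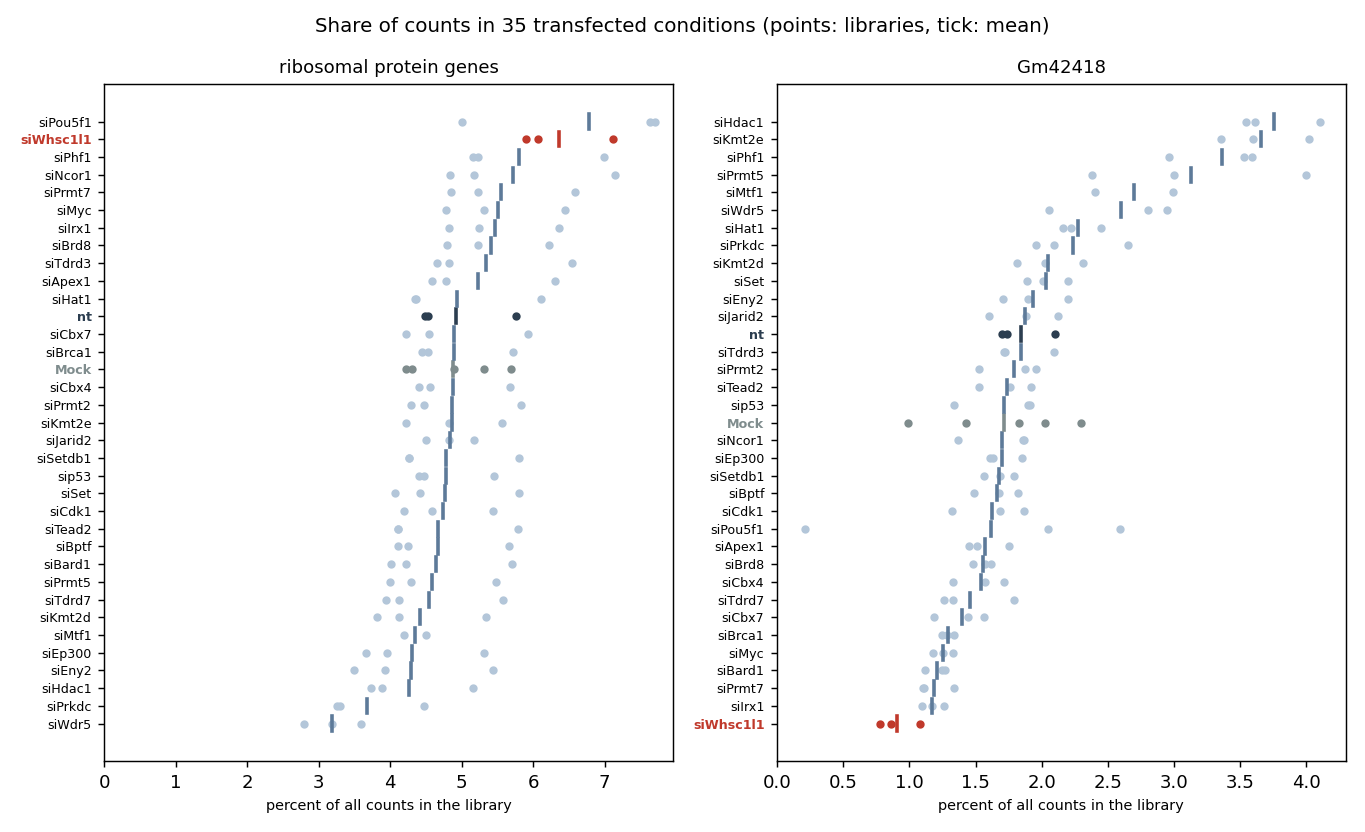
Mean share of counts, in percent, of ribosomal protein genes and of Gm42418 in each of the 35 transfected conditions, with the libraries as points. siWhsc1l1 had 6.36% ribosomal protein counts, rank 2, and 0.905% Gm42418, the lowest mean.

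The genes described here around NSD3 itself showed no call against nt. Among its listed partners, Brd2, a bromodomain protein, was at 0.51 ± 0.77 on the log2 scale (edgeR adjusted p = 0.894), and Ccnt1, the cyclin of the elongation kinase P-TEFb, at -0.86 ± 0.54 (edgeR adjusted p = 0.562). Of 7 methyltransferases of histone H3 lysine 36, Nsd3 included, only Ash1l passed the filter, with 1.13 ± 0.43 (edgeR adjusted p = 0.176), while the family members Nsd1 and Nsd2 had 12 and 3 counts in siWhsc1l1 and 14 and 4 in nt. Psip1, a PWWP-domain reader of the mark, had -0.73 ± 0.38 (edgeR adjusted p = 0.412), and 0 of 4 tested readers and 0 of 1 tested demethylase were called. Since 1.76% of all tested genes were called against nt, so few members cannot show a lack of change.

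Of 25 tested genes of MYC and nucleolar growth, 0 rose and 2 fell, Hspd1 and Ncl, with a median log2 fold change of -0.27, where 0.664% of all tested genes were called lower. Mock stood as low against nt, with 2 of the 25 lower and a median of -0.46, and in siWhsc1l1 against Mock 0 were called, with a median of -0.07. Of 27 heat shock and chaperone genes 1 fell, Hspd1, and 0 rose. Against nt 0 of 10 S phase, 0 of 29 mitosis, 0 of 12 p53 target, 0 of 42 mesenchymal, 0 of 38 spliceosome, 0 of 26 tubulin and actin, 0 of 14 low-oxygen and glycolysis, 0 of 12 ATF4 response and 0 of 13 sterol and fatty acid synthesis genes were called. Of all tested genes 1.76% were called in this comparison. Only 1 epithelial and 2 pluripotency genes passed the filter, none called. Cdh1, the epithelial cadherin, had 6 counts in siWhsc1l1 and 4 in nt, and Sall4, an early pluripotency factor, had 2 and 7. L1td1, an RNA-binding protein of pluripotent cells, had 4 counts in siWhsc1l1, 21 in nt and 16 in Mock, with a log2 fold change of -1.69 ± 0.82 against nt (edgeR adjusted p = 0.362). The 34 listed pluripotency genes together had 57 counts in siWhsc1l1, 134 in nt and 114 in Mock. Their share of all counts was 0.0149% to 0.0355% in siWhsc1l1, 0.0370% to 0.0559% in nt and 0.0289% to 0.0589% in Mock. The siWhsc1l1 libraries thus lay below the nt libraries and overlapped the Mock libraries, and this sum was not tested.

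The comparison with Mock asks which differences also hold against transfection without siRNA, and it used the same siWhsc1l1 libraries. It called 41 genes (1.36%), 20 higher (0.664%) and 21 lower (0.697%). Without replicate 2 the count was 27 and without replicate 3 it was 20, and without the replicate block it was 20. Of the 75 ribosomal protein genes 6 rose and 0 fell, where 0.664% of all tested genes were called higher, and their median log2 fold change was 0.17. Without replicates 1, 2 and 3 in turn 4, 2 and 1 were higher, without the block 2 and by limma 0, and a fit to only the conditions compared gave 7 higher and 1 lower. They were Rpl10a and Rpl35, which were also called against nt, and Rpl6, Rpl19, Rpl32 and Rps4x. Mock and nt differed from each other in 47 genes (1.56%), 31 higher (1.03%) and 16 lower (0.531%) in Mock. Against nt and Mock together siWhsc1l1 differed in 55 genes (1.83%), 36 higher (1.19%) and 19 lower (0.631%).

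Some genes called against Mock were not called against nt, and these were chosen after their values were seen. Mt1, a metallothionein that binds zinc and copper, was at 636, 679 and 1021 CPM in siWhsc1l1, at 399.7, 568 and 613 CPM in nt, and at 254 to 490.03 CPM in Mock. The siWhsc1l1 libraries were above all nt and Mock libraries. Mt1 was higher than Mock by 1.09 ± 0.24 (SE, log2; edgeR adjusted p = 0.00192), and its difference from nt was 0.59 ± 0.23 (edgeR adjusted p = 0.203). S100a6, a calcium-binding protein of fibroblasts, was at 4971, 5091 and 4728 CPM in siWhsc1l1, at 4163, 3275 and 4583 CPM in nt and at 2791 to 3545.5 CPM in Mock. It was higher than Mock by 0.64 ± 0.13 (edgeR adjusted p = 0.000325) and differed from nt by 0.29 ± 0.14 (edgeR adjusted p = 0.335). Farsb, a subunit of phenylalanyl-tRNA synthetase, was higher than Mock by 1.76 ± 0.34 (edgeR adjusted p = 0.000152), with 0.40 ± 0.29 against nt (edgeR adjusted p = 0.649). For Farsb it was Mock that stood apart, since Mock differed from nt by -1.36 ± 0.34 (edgeR adjusted p = 0.00960).

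In the other direction, the mitochondrial transcript mt-Nd4l was lower than Mock by a log2 value of -1.92 ± 0.26 (edgeR adjusted p = 1.55e-08), with -0.91 ± 0.30 against nt (edgeR adjusted p = 0.0954). Gm10719 was lower than both controls, by -1.89 ± 0.50 against nt (edgeR adjusted p = 0.0173) and -2.82 ± 0.45 against Mock (edgeR adjusted p = 8.18e-07), and its call against nt was lost without replicate 1 and without replicate 3. Gm10800, abundant and a gene by annotation, has 9 relatives of 89.8% to 92.2% identity, Gm10719 among them. Gm10800 differed from Mock by -1.06 ± 0.19 (edgeR adjusted p = 1.09e-05) and from nt by -0.30 ± 0.20 (edgeR adjusted p = 0.613). Together the 10 genes took 1.00% ± 0.0246 of the counts in siWhsc1l1, 1.28% ± 0.162 in nt and 2.01% ± 0.426 in Mock. Hmmr, a spindle-associated protein, had -1.37 ± 0.39 against Mock (edgeR adjusted p = 0.0407), the 1 called gene of 29 mitosis genes where 0.697% of all tested genes were called lower, and the imprinted RNA H19 had -0.96 ± 0.26 (edgeR adjusted p = 0.0215).

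Against the mean of the other 32 siRNAs, which draws on 95 libraries and so carries a smaller error on that side, siWhsc1l1 differed in 106 genes (3.52%), 84 higher (2.79%) and 22 lower (0.730%). Without replicate 1, 2 or 3 the counts were 63, 65 and 68, and without the replicate block 48. Of 75 ribosomal protein genes 19 rose, 0 fell and 56 were not called, where 2.79% of all tested genes were called higher. Their log2 fold changes ran from -0.87 to 1.10, with a median of 0.28. This comparison used the same siWhsc1l1 libraries as those with nt and Mock. The 19 became 9, 10 and 13 without replicates 1, 2 and 3, 9 without the block and 2 by limma. Rpl10a was higher by 1.05 ± 0.10 (edgeR adjusted p = 1.00e-19), and Rpl10a, Rpl35 and Med28 each had their highest level of the 35 transfected conditions in siWhsc1l1. Hspd1 had its lowest, with -1.52 ± 0.33 (edgeR adjusted p = 0.000398), and Gm42418 differed by -0.99 ± 0.15 (edgeR adjusted p = 5.33e-08). Of 42 mesenchymal genes 4 rose and 0 fell: the proteoglycans Lum, with 1.05 ± 0.24, and Dcn, with 1.02 ± 0.22, and the calcium-binding S100a4, with 0.71 ± 0.21, and S100a6, with 0.49 ± 0.10 on the log2 scale. The list as a whole did not follow them, with a median log2 fold change of -0.21 and 15 of 42 values above 0. By the number of genes called against nt, siWhsc1l1 with 53 shared rank 12 of the 33 siRNAs with siPrkdc, where siWdr5 had 821.

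Of the other siRNAs, 3 were directed at other SET-domain proteins, namely the histone methyltransferases Setdb1 and Kmt2d, which act on other residues of histone H3, and Kmt2e, a relative of Kmt2d. siWhsc1l1 differed from siSetdb1 in 74 genes (2.46%), 51 higher (1.69%) and 23 lower (0.763%). From siKmt2d it differed in 175 genes (5.81%), 52 of them lower (1.73%) and the rest higher (4.08%). From siKmt2e it differed in 52 genes (1.73%), 20 higher (0.664%) and 32 lower (1.06%). Leaving out 1 replicate gave 39 to 41 genes for siSetdb1, 83 to 105 for siKmt2d and 7 to 38 for siKmt2e, the 7 without replicate 3. Of 75 ribosomal protein genes, 10 were higher in siWhsc1l1 than in siSetdb1, 21 higher than in siKmt2d and 6 higher than in siKmt2e, and 0 were lower in each. Rpl10a was higher by 1.11 ± 0.15, 1.61 ± 0.15 and 1.15 ± 0.15 on the log2 scale, in the same order, and passed the test each time. Hspd1 had -1.52 ± 0.40, -1.84 ± 0.37 and -1.48 ± 0.40, and Gm42418 -0.85 ± 0.19, -1.08 ± 0.19 and -2.11 ± 0.19, all past the test. The 3 comparisons share the siWhsc1l1 libraries.

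The time course places these differences beside those of reprogramming itself, in which 668 genes (22.2%) differed between day 6 and day 0, 321 higher (10.7%) and 347 lower (11.5%). Rpl10a rose from day 0 to day 6 by 1.15 ± 0.17 and Rpl35 by 1.29 ± 0.25 on the log2 scale, and Ncl rose by 1.22 ± 0.18, whereas Ncl was lower in siWhsc1l1 than in nt. Gm42418 differed between day 6 and day 0 by -0.65 ± 0.18 and Hspd1 by 0.93 ± 0.31. On a quadratic curve fitted to day 2 to day 6 in the first 2 principal components, which held 40.0% and 4.01% of the variance of 200 genes, all siWhsc1l1, nt and Mock libraries fell at the end, day 6. Of the 35 transfected conditions 32 were at the end of the curve, so that this scale could not separate them, and the differences of 0 days from nt and Mock carry no information on a shift. On the first component the siWhsc1l1 libraries were at 6.30, 7.70 and 4.41, the nt libraries at 5.24, 4.71 and 6.30, and the Mock libraries at 3.15 to 6.25. The groups overlapped, and all of them lay beyond the untransfected day 6 libraries, at -7.35, -5.60 and -5.60.

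**Figure D5:**
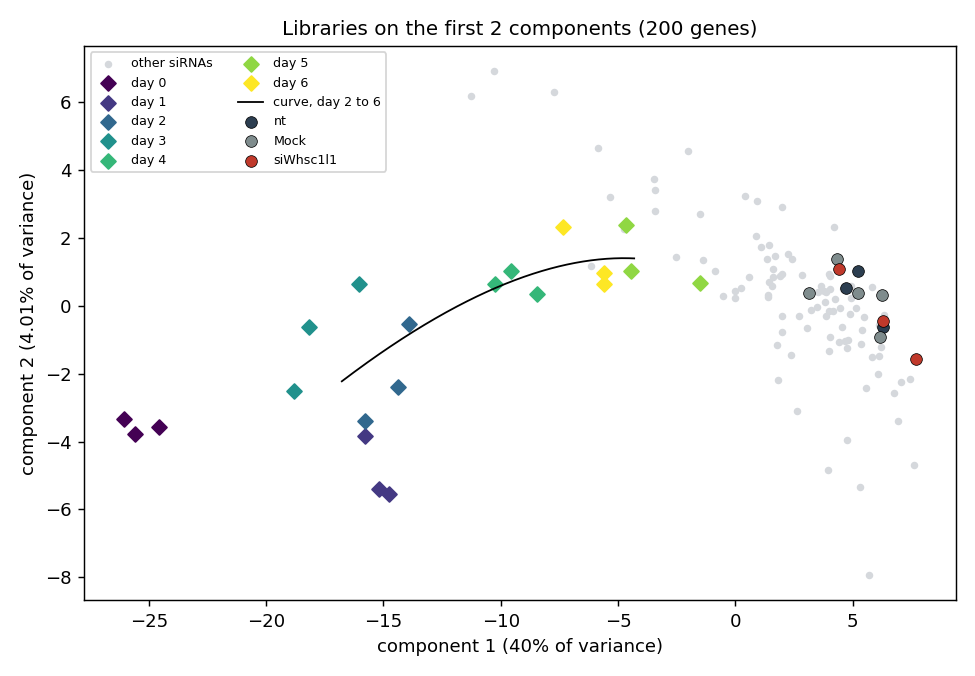
Position of libraries on the first and second principal components, with the time course by day, the fitted curve, the siWhsc1l1, nt and Mock libraries and, in pale grey, the other siRNAs. The siWhsc1l1 libraries, at 4.41 to 7.70 on the first component, lay among or next to the nt and Mock libraries.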

How the data were processed

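RNA was collected in bulk and made into CEL-Seq2 libraries, and each replicate was sequenced as 1 pool. The authors aligned the reads to mm10 by Bowtie2, collapsed them by unique molecular identifier in the CEL-Seq2 pipeline against GENCODE vM13 and left out poor libraries. The deposited table of raw counts per gene was used for all tests. The deposited log2 values were normalized and freed of the batch by the authors, and they served only for limma. Conditions were read from column names. Of the 5 Mock libraries, 2 pairs bear the same name and were kept in file order, and that of replicate 3 was matched between the tables by correlation (r = 0.915 against 0.0265).

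All 127 libraries of both tables were fitted with edgeR 4.0.16 (R 4.3.3; TMM, filterByExpr by condition, quasi-likelihood, 1 term a condition and the replicate number as block), which left 83 residual degrees of freedom (common dispersion 0.0158). Each comparison had its own Benjamini-Hochberg adjustment, and genes with an adjusted p under 0.05 were called. Standard errors came from the test statistic. DESeq2 1.42.0 and limma 3.58.1 were alternatives. The block rests on the labels, which make a replicate number 1 sequencing pool. Deviations of siWhsc1l1 and nt libraries from their conditions correlated with r of 0.0620, 0.0688 and 0.184 in replicates 1 to 3, and the median was 0.0981 over all pairs of the same number and -0.0685 over the others. In 16 pairs of replicates the chi-square per gene was 1.32 to 2.42, above sampling noise, so that none was a duplicate. Total counts per library, 29656 to 235292, limit the precision of low genes.

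Named genes were the 12 largest fold changes in each direction against nt among those called, with a mean of at least 50 CPM in 1 condition and the same sign in each replicate, and the called members of gene lists, up to 4 a list; others were chosen after their values were seen. The 7 ribosomal protein genes were all described. The members and lists were chosen with earlier results of these data known. A copy was a gene with at least 95% identity over 150 bases (80% of a shorter query) and 50% of the shorter transcript, by blastn 2.17.0 on GENCODE vM21 transcripts (GRCm38), which also gave positions. Start windows came from RefSeq. Scripts were tested on simulated data. Some items that the rule names are not reported here.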

Additional observations from a re-analysis of the deposited data

Results flagged for a closer look

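A library far from the other 4 of its group was found, among the 5 Mock libraries, for 3 of 28 genes, by the gap to its neighbour over the range of the group (critical value 0.71). Chance gives such a value in about 1 in 20 groups. Gm2000, the copy of Rpl35, was at 621 CPM in a Mock library of replicate 2, where the others were at 1236 to 1448 CPM. Pnn was at 343 CPM in a Mock library of replicate 1, where the others were at 129 to 173 CPM. Gm26384 was at 1119.5 CPM in the Mock library of replicate 3, where the others were at 206 to 378 CPM, and the nt library of that replicate was also high, at 1160.0 CPM.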

How the results depend on the processing

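Of the alternatives, restriction to protein-coding nuclear genes was chosen after seeing the data. The comparisons are given in the order nt, Mock, other siRNAs, siSetdb1, siKmt2d and siKmt2e, where 53, 41, 106, 74, 175 and 52 genes were called. Limma on the deposited log2 values called 0, 13, 24, 4, 0 and 3, with 643 and 552 at an unadjusted p under 0.05 where it called 0 against nt and siKmt2d. Protein-coding nuclear genes alone gave 13, 19, 46, 13, 98 and 26. Without the low-count filter 20 genes were called against nt, 39 against siSetdb1, 73 against siKmt2d and 29 against siKmt2e. A fit to only the conditions compared gave 85 against nt and 94 against siKmt2e. Leaving out 1 replicate gave 21 to 34, 20 to 32, 63 to 68, 39 to 41, 83 to 105 and 7 to 38. Without the replicate block, so without pairing by sequenced pool, the counts were 14, 20, 48, 26, 66 and 15. Of the 28 named genes 12 were called without the filter, 0 by limma, 11 without the block, 10 of 15 tested among protein-coding nuclear genes, and 12 to 20 when 1 replicate was left out. None of the 28 changed sign. Rpl10a, Rpl7, Gm2000, Mrpl42 and Hspd1 were called under every alternative run but limma. Nsd3 changed sign, to 0.0145 under DESeq2's size factors, 0.0422 under DESeq2, 0.14 under limma and 0.0036 without the block, and ran from -0.99 to 0.99 when 1 replicate was left out. The position on the time course is at the end of its scale and says nothing about stability, and on the first component alone the difference from nt was 0.16 days (exact permutation p = 0.75, where 8 relabellings allow no p under 0.25). The causes of these changes were not tested. Depth limits all genes of low counts, Nsd3, Klf9 and single pluripotency genes among them.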

Other observations

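The seeds of the 2 listed siRNAs were searched as 7-base matches in the annotated 3′ UTRs of 2433 tested genes, a search chosen after the calls were known. A gene counted as matched if any of its UTRs held the match. A match to the seed of siRNA 502440, written ttaacat in DNA, was present in 488 genes (20.1%), and in 5 of the 10 lower genes with a UTR: Bclaf1, Gtpbp4, Klf9, Pnn and Zfp266. The median log2 fold change against nt was -0.15 for genes with the match and -0.01 for genes without it. A match to the seed of siRNA 502441, atttgta, was present in 685 genes (28.2%), and in 6 of the 10 lower genes, Bclaf1, Gtpbp4, Hspd1, Ncl, Pnn and Zfp266, with medians of -0.10 and -0.01. UTR length moved with these calls. The longest UTR of a gene had a median of 1814.5 bases in the 10 lower genes, 193 bases in 14 higher genes and 1292 bases in all 2433. The part of UTR length in these shares was not tested, and a match is no evidence of binding.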
